A study of Mus musculus with 4 samples.

Results

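The vomeronasal type 2 receptor genes (Vmn2r) were examined for H3K9me3, the trimethylated lysine 9 of histone H3 that marks silent chromatin, in cultured mouse CD8+ T cells. Members were the autosomal protein-coding genes of RefSeq assembly GRCm38.p6 (mm10) whose symbol is Vmn2r followed by digits. Of 123 genes with such a symbol, 1 on chromosome X and 1 on a scaffold outside the chromosome sequences were left out. This left 121 of 20558 autosomal protein-coding genes. The study made 1 H3K9me3 chromatin immunoprecipitation library of wild-type (WT) and 1 of Suv39h1 knockout (KO) cells, where the KO lacks the H3K9 methyltransferase SUV39H1. Both cultures were CD8+ T cells on the C57BL/6 background, kept for 3 days with interleukin-2 and with antibodies to CD3 and CD28. An input library per genotype is labelled and not analysed here. How the allele was made, and how many animals were used, is not given in the sources used here.

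Vmn2r genes encode class C G protein-coupled receptors with a large extracellular ligand-binding domain. They are expressed in sensory neurons of the basal layer of the vomeronasal organ, where they detect peptide and protein pheromones and signal through the G protein alpha subunit Gnao1 and the channel Trpc2. A neuron expresses very few of these receptors, and the family lies in tandem arrays that have grown by duplication. They are not known for a role in T cells, and H3K9me3 is known to lie over tandem gene families in many tissues.

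Because neighbouring copies can be near identical, the sequence at their starts is shown first. For 115 of the 121 members the RefSeq promoter table of GRCm38.p6 holds a window of 250 bases before and 50 after the annotated start. The first pair lies in the largest array, on chromosome 7, and shows how alike its copies are. Vmn2r32 (chr7:7479924-7480223, minus strand) and Vmn2r30 (chr7:7337444-7337743, minus strand) were 97.7% identical, and capitals mark the 7 bases that differ. The window of Vmn2r49, which lies 2.51 Mb from that of Vmn2r32, is identical to it in all 300 bases. No island of either list touched these windows.
Vmn2r32: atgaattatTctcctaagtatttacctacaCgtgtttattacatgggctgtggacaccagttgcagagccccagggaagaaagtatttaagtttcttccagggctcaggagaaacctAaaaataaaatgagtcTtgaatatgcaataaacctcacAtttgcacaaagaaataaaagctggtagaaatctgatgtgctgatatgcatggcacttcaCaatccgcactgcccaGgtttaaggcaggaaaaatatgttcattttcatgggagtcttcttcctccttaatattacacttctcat
Vmn2r30: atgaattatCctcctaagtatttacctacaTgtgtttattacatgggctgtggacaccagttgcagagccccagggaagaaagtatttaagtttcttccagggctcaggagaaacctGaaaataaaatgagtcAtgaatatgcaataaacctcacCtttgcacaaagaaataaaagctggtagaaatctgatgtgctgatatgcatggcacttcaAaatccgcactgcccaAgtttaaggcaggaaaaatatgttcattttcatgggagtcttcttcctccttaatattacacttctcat

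The next windows belong to the members with the longest cover shared by both lists (Vmn2r80, chr10:79148566-79148865, plus strand), the longest in WT alone (Vmn2r71, chr7:85615212-85615511, plus strand) and the longest in KO alone (Vmn2r60, chr7:42116221-42116520, plus strand). The last is Vmn2r3 (chr3:64287368-64287667, minus strand), of the Vmn2r1 to Vmn2r7 group. All 300 bases lay in a WT island at Vmn2r80 and Vmn2r71, and in a KO island at Vmn2r60 and Vmn2r3. None of these windows touched an island of the other list, so the window of Vmn2r80 lies outside the cover that the lists share there. Capitals mark CG dinucleotides, the sites of DNA methylation.
Vmn2r80: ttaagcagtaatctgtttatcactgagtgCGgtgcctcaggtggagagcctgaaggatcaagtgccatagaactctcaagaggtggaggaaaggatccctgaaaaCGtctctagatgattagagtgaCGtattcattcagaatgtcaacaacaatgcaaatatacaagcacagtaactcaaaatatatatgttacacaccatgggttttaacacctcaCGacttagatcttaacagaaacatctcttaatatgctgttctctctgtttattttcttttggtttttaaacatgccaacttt
Vmn2r71: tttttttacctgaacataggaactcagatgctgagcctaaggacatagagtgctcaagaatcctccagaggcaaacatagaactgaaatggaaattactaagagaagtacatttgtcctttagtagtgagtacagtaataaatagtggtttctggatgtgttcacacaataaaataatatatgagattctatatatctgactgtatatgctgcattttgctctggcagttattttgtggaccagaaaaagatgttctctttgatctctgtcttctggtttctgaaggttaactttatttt
Vmn2r60: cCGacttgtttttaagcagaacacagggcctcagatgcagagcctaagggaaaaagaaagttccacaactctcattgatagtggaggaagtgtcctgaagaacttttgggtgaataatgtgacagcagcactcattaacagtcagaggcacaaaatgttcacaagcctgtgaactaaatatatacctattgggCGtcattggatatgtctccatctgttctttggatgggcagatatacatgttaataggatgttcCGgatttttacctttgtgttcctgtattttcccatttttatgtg
Vmn2r3: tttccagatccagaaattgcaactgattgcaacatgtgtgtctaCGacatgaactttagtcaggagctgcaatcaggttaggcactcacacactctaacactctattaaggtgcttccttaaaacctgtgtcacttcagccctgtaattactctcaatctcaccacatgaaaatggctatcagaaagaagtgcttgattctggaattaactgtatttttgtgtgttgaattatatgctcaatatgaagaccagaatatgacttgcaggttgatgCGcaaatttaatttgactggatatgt

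Such starts are poor in CG. The 115 windows held a median of 1 CG dinucleotide and 38.0% G and C, against 14 and 56.7% over 16457 autosomal protein-coding genes with a window. No CG at all was found in 32 of them (27.8%), and in 4.95% of all windows. The letters TATAAA, searched on both strands, occurred in 27 windows (23.5%) and in 13.5% of all windows.

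The mark was measured as islands, stretches that the peak caller SICER reported as enriched, in 1 list per library. The WT list held 12371 islands and the KO list 25424, with 5547695 and 10020253 reads in them, while the depth of the libraries is unknown. Their autosomal length was 136.3 Mb in the WT list and 249.1 Mb in the KO list, 1.83 times as much. A median island held 40.4 reads per kb in WT and 40.1 in KO. With 1 library per genotype no test was possible, so values are set side by side, and differences between libraries cannot be told apart from differences between genotypes. In a bulk culture, fewer marked cells and less mark per cell cannot be told apart either. None of 9 T cell genes (Cd3d, Cd3e, Cd3g, Cd8a, Cd8b1, Cd2, Lck, Zap70 and Ptprc) had an island, which does not test the cell type label. Having none was common, since 78.7% of all autosomal protein-coding genes, with 2 kb flanks, had no island in either list.

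More Vmn2r genes carried an island in KO than in WT, and in both lists their share was above that of all genes. A member was counted when at least 1 bp of the gene with 2 kb on each side lay in an island. In WT 44 of 121 members did so (36.4%, exact 95% interval 27.8 to 45.6), against 14.8% of all autosomal protein-coding genes. In KO 64 did so (52.9%, 43.6 to 62.0), against 14.5%. Intervals cover the counting of genes only, and neighbours are not independent. Islands of both genotypes lay over 34 members (28.1%, all genes 8.03%), of WT alone over 10 (8.26%, all genes 6.77%) and of KO alone over 30 (24.8%, all genes 6.52%). The other 47 had none. The difference of 20 genes was gone when the KO list was reduced to the number of WT islands by keeping those with most reads. Each list then covered 44 members, 28 of them shared and 16 its own. The reduced KO list covered 8.89% of all genes. Between the lists as deposited, the share of all genes was nearly the same while that of Vmn2r genes was not.

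Members are longer than most genes, with a median of 24.7 kb against 17.6 kb over all genes, and a longer region is more likely to touch an island. In 6 members the start in the promoter table lies over 2 kb inside the gene. Annotated starts, compared in a fixed window of 250 bases on each side, were in a WT island for 26 of 115 members (22.6%, all genes 3.63%) and in a KO island for 29 (25.2%, all genes 4.12%). Both lists covered 14 starts, WT alone 12 and KO alone 15. The numbers at starts depended on the islands used. With islands under the median density left out they were 11 in WT and 23 in KO, and with the KO list reduced to the WT number 26 and 20. The share of all genes at starts is not given for these settings. At least 50% of the region was covered in 16 members in WT (all genes 2.75%) and in 23 in KO (all genes 3.41%).

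**Figure D1:**
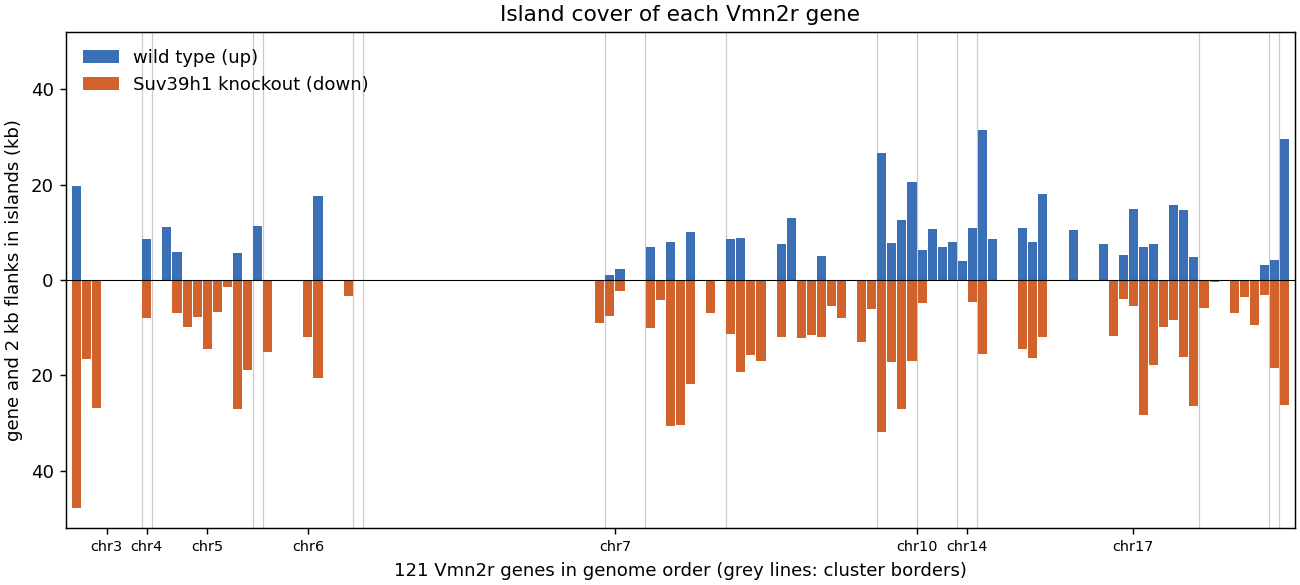
Length in islands of each of the 121 Vmn2r genes with 2 kb flanks, in kb, in genome order, with WT drawn upward and KO downward and grey lines at cluster borders. Bars reach 31.6 kb in WT against 47.8 kb in KO, and the wide empty stretch is the chromosome 7 array of 24 genes.

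Covered members held a median of 8.50 kb in islands in WT, from 1.04 to 31.6 kb, and of 12 kb in KO, from 0.35 to 47.8 kb. Among the 34 members covered in both, 22 had the longer cover in KO, 10 in WT and 2 were equal, with a median difference of 3.25 kb in favour of KO. In 33 of these 34 the islands of the lists shared at least 1 base.

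Members at most 1 Mb apart were joined, which gave 12 clusters of 2 or more genes and 5 single genes. Together their spans measured 13.6 Mb, of which WT islands covered 8.33% and KO islands 17.15%, 2.06 times as much. Autosomes from the first to the last island were covered to 5.7% and 10.41%, and KO length was 1.83 times that of WT. Cover was higher in KO in 10 of the 12 clusters, which hold 110 members, and higher in WT in 2, which hold 6. Reduced to the WT number of islands, the KO list gave a ratio of 1.30, and the ratio over autosomes is not given for that setting. KO minus WT cover was then 0.0 kb at Vmn2r29 to Vmn2r52, -12.7 kb at Vmn2r80 to Vmn2r83 and -1.6 kb at Vmn2r90 to Vmn2r110. It stayed positive in the rest of the 10 clusters.

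**Figure D2:**
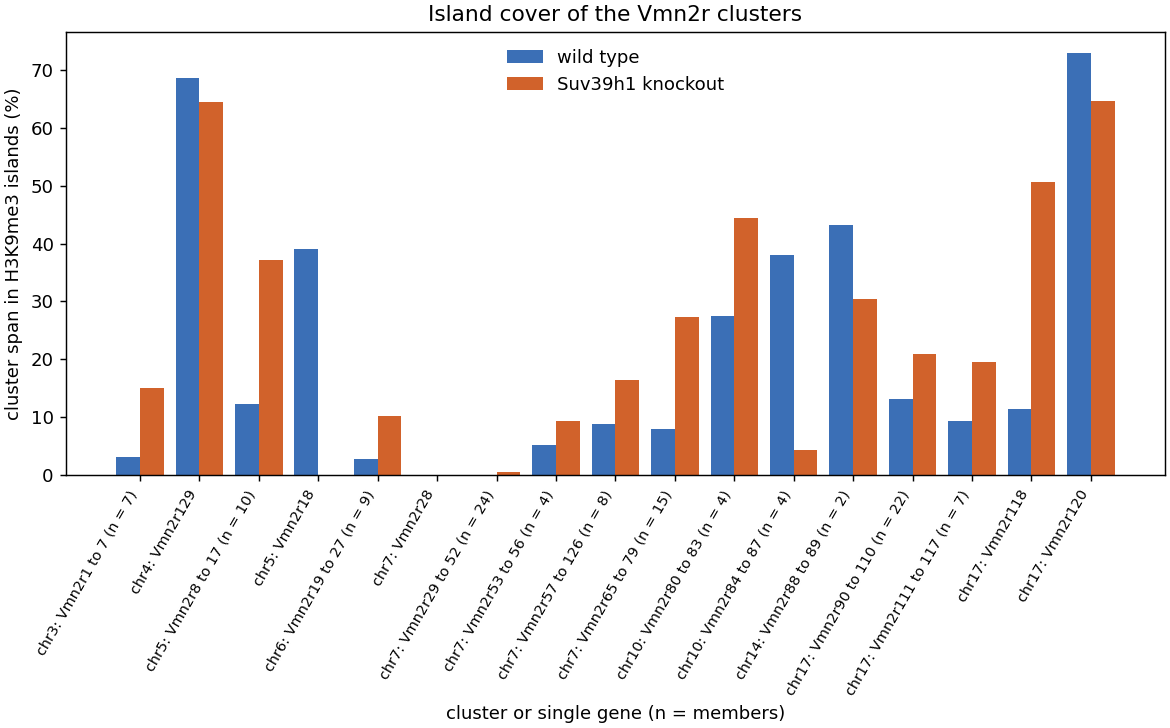
Share of each cluster span, or of each single gene with 2 kb flanks, in H3K9me3 islands, in percent, with blue bars for WT and orange bars for KO and n giving the number of genes. KO bars are the taller ones in 10 of 12 clusters, and WT bars at Vmn2r84 to Vmn2r87 and at Vmn2r88 and Vmn2r89.

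Vmn2r1 to Vmn2r7 form the divergent group known as family C, which basal vomeronasal neurons express together with a receptor of the other families. They lie at chr3:64078172-64719602. Vmn2r1 was covered over 19.8 kb by 3 WT islands and over 47.8 kb by 5 KO islands. Its annotated region of 142.7 kb includes Vmn2r2, with which it shares 1 KO island of 16.5 kb (chr3:64127501-64144000) that no WT island overlapped. Vmn2r3 had no WT island and 26.9 kb in 2 KO islands, 82.9% of its region. Vmn2r4, Vmn2r5, Vmn2r6 and Vmn2r7 had none in either list, and their nearest KO islands lay 51.1 kb or more away. The group thus parts into 3 covered genes at one end and 4 uncovered at the other. The windows in the promoter table were at most 60.7% identical to those of any other member for the covered genes, whereas those of Vmn2r6 and Vmn2r7 were 99.3% identical to each other and that of Vmn2r4 95% to that of Vmn2r6. For Vmn2r1, Vmn2r2, Vmn2r4 and Vmn2r6 the start in that table lies 3470, 33437, 5263 and 5616 bases inside the annotated gene. In the 1 Mb beside the cluster, islands covered less in KO than in WT, with 2.67% against 14.0% on the side of Vmn2r1 and 9.90% against 10.95% on the other.

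At Vmn2r8 to Vmn2r17 (chr5:108797193-109453387) islands covered 12.3% of the span in WT and 37.1% in KO. WT islands lay over 3 of its 10 genes and KO islands over 8. Vmn2r16 had 5.62 kb in WT against 27.1 kb in KO, and Vmn2r17 had 18.9 kb in KO alone. Vmn2r10 was covered alike, with 5.94 and 6.94 kb. Vmn2r9 went the other way, with 11.1 kb in 2 WT islands and its nearest KO island 55.0 kb away. The longest KO island of the cluster (chr5:109221001-109245500, 1013 reads) touched Vmn2r14 and had no WT island over it. The 1 Mb on either side had less in KO than in WT, with 5.85% and 10.8% in WT against 0.60% and 8.16% in KO.

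At Vmn2r19 to Vmn2r27 (chr6:123308333-124231784) WT islands lay over 1 of 9 genes and KO islands over 4, with 2.75% and 10.2% of the span covered. Vmn2r24 was the gene covered in both, with 17.5 kb in WT against 20.5 kb in KO, of which 12 kb were shared. Vmn2r19 had 15.2 kb in KO alone. Vmn2r26, known as V2r1b and as a receptor for peptides that bind MHC class I molecules, had no island, and the nearest lay 41.8 kb away in WT and 6.0 kb away in KO.

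The largest array, on chromosome 7, was nearly free of islands. Between Vmn2r29 and Vmn2r52 (chr7:7212996-10176286) lie 24 members and 17 Vmn2r pseudogenes in 2.97 Mb. No WT island and 2 KO islands were called there, at chr7:10148501-10156500 with 329 reads and chr7:10162501-10171500 with 346 reads. The second lay in Vmn2r52, the last gene of the array, and the other 23 members had no island in either list. The WT list had no island from chr7:5933001 to 10744500, a stretch of 4.81 Mb that ranks 5 among 12349 autosomal gaps between WT islands. The KO gap of 3.09 Mb ranks 17 among 25390. Without this array WT islands lay over 44 of 97 members (45.4%) and KO islands over 63 (64.95%), an alternative chosen after the data were seen.

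The array is also where copies are most alike. Each promoter window was aligned to those of all other members. In this array the identity to the most similar one had a median of 99.0%, with 15 of 22 windows at 95% or more and 6 at 100%. Of the 35 members of the whole family at 95% or more, 3 (8.57%) had a WT island and 10 (28.6%) a KO island. Of the 80 under 95%, 41 (51.25%) had a WT island and 53 (66.25%) a KO island. Outside the array, 3 and 10 of 20 members at 95% or more were covered, and 41 and 52 of 73 under 95%. At Vmn2r111 to Vmn2r117, where the median identity was 98.3%, WT islands held 1.92% of member regions and touched 1 of 7 members, and KO islands held 18.1% and touched 6. The handling of reads that align to several places is not given in the sources used here, so the part of copy identity in the lack of islands was not tested. The absence of an island over the array is therefore no measurement of absent H3K9me3.

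**Figure D3:**
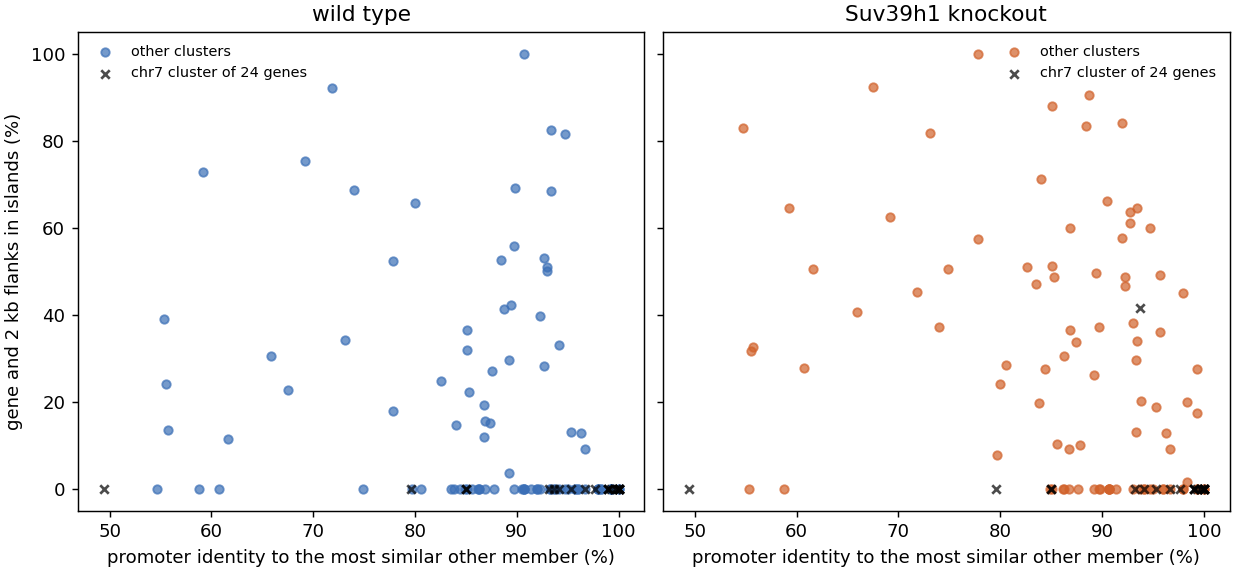
Identity of each member's promoter window to the most similar other member (x axis, percent) against the share of gene and flanks in islands (y axis, percent), for 115 members in WT and KO. Crosses mark the chromosome 7 array, where 0 of 22 members in WT and 1 in KO lie above 0%.

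The other chromosome 7 clusters carried islands. At Vmn2r65 to Vmn2r79 (chr7:84940169-87037968), which also holds 15 olfactory receptor genes, islands covered 7.95% in WT against 27.3% in KO, and 5 and 12 of 15 members had one. KO islands alone lay over 8 members. Vmn2r68 had 17 kb and Vmn2r67 15.7 kb in KO alone, while Vmn2r66 had 8.86 kb in WT against 19.4 kb in KO. Vmn2r71 had the longest cover in WT alone, 13.1 kb in 1 island that held its whole region (chr7:85608501-85627500), with a KO island 4.0 kb from the gene. The KO excess of 406.3 kb in this span was 209.8 kb with equal numbers of islands, the largest left in any Vmn2r cluster. The 1 Mb on the side of Vmn2r65 held 9.15% in WT against 3.72% in KO, and the 1 Mb on the other side 14.45% and 35.65%.

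At Vmn2r57 to Vmn2r126 (chr7:41399732-43048106) cover was 8.74% in WT against 16.5% in KO, with islands in 3 and 6 of 8 members. Vmn2r59 had 7.98 kb in WT against 30.7 kb in KO, and its neighbour Vmn2r60 had 30.5 kb in KO alone. Vmn2r61 had 10 kb in WT against 21.8 kb in KO, but shared only 0.50 kb. The KO excess in this span was 128.0 kb with all islands and 0.50 kb with equal numbers of islands. Vmn2r62 and Vmn2r126, whose promoter windows are identical, had no island. At Vmn2r53 to Vmn2r56, a WT island (chr7:12607501-12615500) lay mostly between Vmn2r53 and Vmn2r54, and a KO island (chr7:12602001-12615500) began inside Vmn2r53. Both reached 2.27 kb into the region of Vmn2r54. Vmn2r53 itself had 1.04 kb in WT against 7.58 kb in KO, and its start window lay in a KO island only. The single gene Vmn2r28 had none.

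On chromosome 10 the 2 clusters went opposite ways. At Vmn2r80 to Vmn2r83 (chr10:79148816-79492154) all 4 genes had islands in both lists, over 27.6% of the span in WT and 44.3% in KO. Vmn2r80 had 26.7 kb in WT against 31.9 kb in KO, with 21.5 kb shared, the most of any member. Vmn2r82 had 12.5 and 27.0 kb, and Vmn2r83 20.5 and 17 kb. The KO excess of this span turned into a WT excess of 12.7 kb with equal numbers of islands (a KO minus WT value of -12.7 kb). At Vmn2r84 to Vmn2r87 (chr10:130385800-130497379) all 4 genes had WT islands, over 38.1% of the span, and 1 had a KO island, over 4.33%. Vmn2r84 was covered in both, with 6.24 kb in WT against 4.74 kb in KO. Vmn2r85 (10.6 kb), Vmn2r86 (7.0 kb) and Vmn2r87 (8.0 kb) were covered in WT alone. This was the sole cluster of more than 2 genes with more cover in WT. Beside Vmn2r84, the adjoining 1 Mb had more cover in KO, 45.3% against 30.8%.

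On chromosome 14, Vmn2r88, a receptor reported to detect haemoglobin, had 4.0 kb in WT alone, with a KO island 3.0 kb from the gene. Its neighbour Vmn2r89 had 11 kb in WT against 4.54 kb in KO. The span (chr14:51411001-51461293) was covered to 43.3% in WT against 30.4% in KO, but KO minus WT was 8.0 kb when islands under the median density were left out.

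Vmn2r90 to Vmn2r110 (chr17:17703941-20596259), with 22 members and 6 formyl peptide receptor genes, was the array with most genes covered in both lists. Islands lay over 14 members in WT and 13 in KO, of which 11 were the same genes, 3 were in WT alone and 2 in KO alone. Cover was 13.2% in WT against 20.9% in KO, and the KO excess of 222.9 kb became -1.60 kb with equal numbers of islands. Vmn2r90 had the longest WT cover of all members, 31.6 kb or 92.2% of its region, and 15.5 kb in KO. Vmn2r95 also had more in WT, 18.0 against 12 kb. At the other end of the array, Vmn2r105 had 7.0 kb in WT against 28.3 kb in KO, within the longest KO island on any Vmn2r cluster (chr17:20193001-20234500, 41.5 kb, 1594 reads). Vmn2r110 had 4.76 kb in WT, and in KO its whole region of 26.4 kb was covered. Vmn2r98 (10.5 kb) and Vmn2r124 (8.50 kb) were covered in WT alone.

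**Figure D4:**
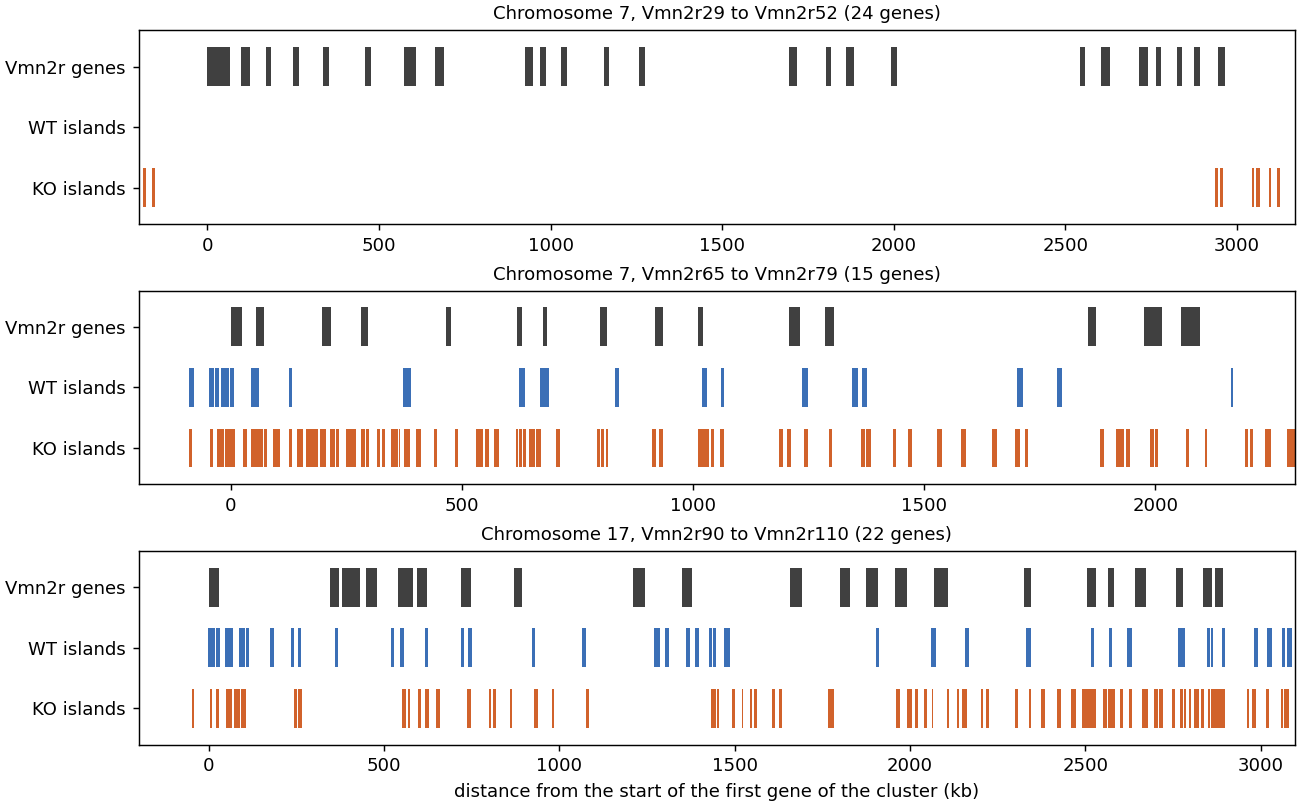
Positions of Vmn2r genes, WT islands and KO islands in the 3 arrays of 15 or more members, with the x axis in kb from the start of the first gene. The array of 24 genes is empty but for 2 KO islands at its end, while both lists have islands along the other arrays.

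At Vmn2r111 to Vmn2r117 (chr17:22547941-23479597) WT islands lay over 1 of 7 genes and KO islands over 6, with 9.36% and 19.6% of the span covered. Vmn2r116, also named V2Rp5 and known as the receptor for the male tear peptide ESP1, had 9.5 kb in 1 KO island, and the nearest WT island lay 76.6 kb away. Vmn2r114 had 7.0 kb in KO alone, and Vmn2r117 had 3.10 kb in both. The cover in WT lay mostly between the genes, with 1.92% of member regions and 10.9% of the rest of the span, while in KO these values were 18.1% and 19.9%. The KO excess was 95.6 kb with all islands and 3.10 kb with equal numbers of islands.

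Among the single genes, Vmn2r129, near the end of chromosome 4, had the densest islands of the family and nearly the same ones in both lists. The WT island (chr4:156329501-156338000) held 546 reads, or 64.2 per kb, and the KO island (chr4:156330001-156338000) 503 reads, or 62.9 per kb. Only 0.598% of WT islands and 0.397% of KO islands were as dense. The 1 Mb before the gene was covered to 0.50% in WT and had no island in KO. Vmn2r120 (chr17:57508783-57545314) had 29.5 kb in WT against 26.2 kb in KO, and Vmn2r118 4.17 and 18.4 kb. Vmn2r18 (chr5:151561661-151586924) had 11.4 kb in WT alone, with the nearest KO island 13.1 kb away.

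Along the gene the lists differed in shape. Over the 115 members with a known strand, WT cover was highest at the 5′ end, with a mean of 22.4% in the 2 kb before the start and 22.7% in bin 1 of the 10 equal bins of the gene. It was 13.2% in bin 6, 9.6% in the 2 kb after the gene and 4.6% in the 2 kb beyond. KO cover was 24.8% and 25.6% at the first pair of places, close to WT, and 29.3% in bin 3. It was 21.5% and 24% in the 4 kb after the gene. With all islands the lists were thus close at the 5′ end and far apart beyond the 3′ end. With islands under the median density left out, starts in an island were 11 in WT and 23 in KO, without a value for all genes. The profile was made with all islands and for Vmn2r genes only, so whether other genes have this shape was not tested. Neighbouring genes of a cluster are not independent, so these means rest on fewer independent stretches than 115.

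**Figure D5:**
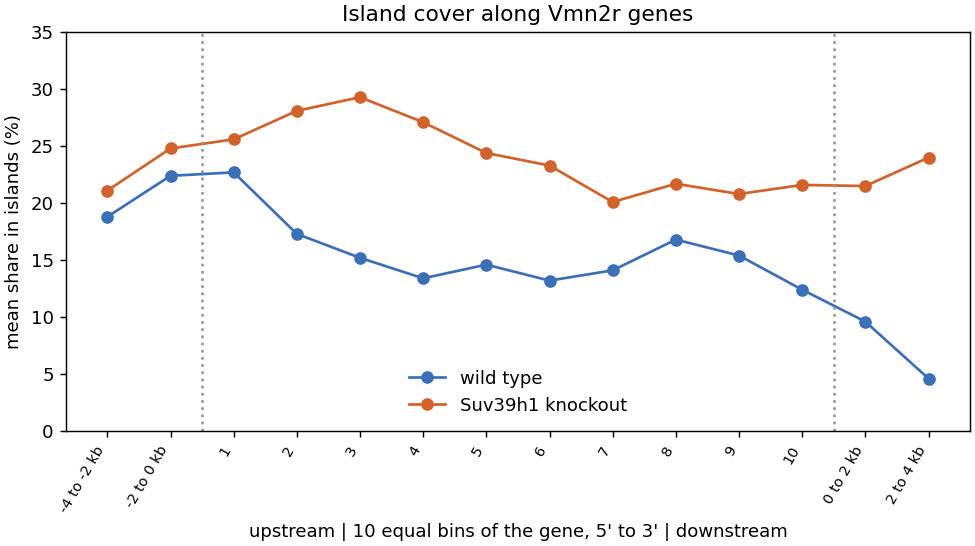
Mean share in islands (y axis, percent) over 2 kb steps upstream, 10 equal bins of the gene from 5′ to 3′, and 2 kb steps downstream, for 115 Vmn2r genes in WT (blue) and KO (orange). The lines lie close at the 5′ end, at 22.7% and 25.6% in bin 1, and are farthest apart downstream, at 4.6% and 24%.

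With all islands, most WT islands on Vmn2r genes had a KO partner, while most KO islands had no WT partner. This asymmetry was nearly gone over the cluster spans with equal numbers of islands, where 47.4% of WT and 44.4% of KO islands were overlapped, against 72.8% and 33.6% with all islands. In all 58 WT islands touched a member region, and 46 (79.3%, 66.7 to 88.8) were overlapped by a KO island, against 48.0% of all autosomal WT islands. Of 112 KO islands 42 (37.5%, 28.5 to 47.15) were overlapped by a WT island, against 24.9% of all. Over the whole cluster spans, 556.6 kb lay in both lists, a Jaccard index (shared over total length) of 0.191 against 0.128 on autosomes. Overlap also rises with cover, which was 8.33% in WT and 17.15% in KO over the spans against 5.7% and 10.41% over autosomes. The part of this denser cover in the higher overlap was not tested. Overlap on autosomes is not given with equal numbers of islands. Nearly every island belonged to 1 gene, since 1 WT and 3 KO islands touched 2 member regions and none touched more. The median density on members was 41.1 reads per kb in WT and 40.8 in KO. In 25 pairs of islands that shared at least 50% of the longer one, WT was denser in 13 and KO in 12, with medians of 41.9 and 42.2. The best matched pairs were those of Vmn2r129 and of Vmn2r83 (chr10:79478001-79493000 in WT, chr10:79478001-79492000 in KO).

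The vomeronasal type 1 receptors (Vmn1r) and the olfactory receptors (Olfr), whose genes have a median length of 0.924 and 0.951 kb, are the other large chemoreceptor families of the nose. Islands lay over 40 of 228 Vmn1r genes in WT (17.5%) and 64 in KO (28.1%), and over 289 (26.3%) and 517 (47.0%) of 1099 Olfr genes. As share of the summed region length, which does not favour long genes, islands held 12.7% of Vmn2r regions in WT and 23.4% in KO. These values were 12.4% and 19.6% for Vmn1r, 19.2% and 32.3% for Olfr, and 4.47% and 6.71% for all genes. At annotated starts, Olfr had 20.6% in WT against 33.1% in KO, Vmn1r 13.2% and 21.0%, and Vmn2r 22.6% and 25.2%. The Vmn2r values depended on the chromosome 7 array of 24 genes, whose lack of islands is no measurement of absent H3K9me3. Without it, islands held 15.3% of Vmn2r regions in WT and 27.8% in KO, and 28.0% and 31.2% of starts. No array was left out of the other families. By count of genes Vmn2r stood above Olfr in both lists, but below it when at least 50% of the region had to be covered. No test of these differences was made.

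For other genes of vomeronasal signalling the shares were nearer to those of all genes. In a list of 76 genes by role, WT islands lay over 11 (14.5%) and KO islands over 15 (19.7%), 6 of them in both. Many of these genes are shorter than any Vmn2r member, and a shorter region is less likely to touch an island. The 22 major urinary protein genes also lie side by side on chromosome 4. Whether reads align to several of them was not checked, so these shares are not matched to those of Vmn2r genes. Among ligands, the exocrine gland peptides had 1 of 15 in WT (Esp38, 8.77 kb) and 4 in KO, such as Esp23 with 7.35 kb. The major urinary proteins had 2 and 3 of 22, with Mup5 covered over 30.7 kb in both. Among receptors, Fpr1 (7.94 kb) and Fpr2 (4.18 kb), which detect formylated peptides, were covered in WT alone, and 3 and 1 of 7 genes of that family had an island. Of the H2-M1, H2-M9 and H2-M10 genes, MHC class I-like partners of Vmn2r receptors, WT islands lay over none of 8 and KO islands over 1 (H2-M1, 0.47 kb). Among 17 transduction and neuron genes 4 and 5 were covered. They include the axon guidance receptor gene Robo2 (chr16:73891976-75447443), with 85.9 kb in WT against 396.0 kb in KO. The adhesion gene Kirrel3 (chr9:34485853-35040807) had 50.6 kb in KO alone. Both are longer than any member, of which the longest measures 142.7 kb, so these lengths are not comparable with those of members. Gnao1, Gnai2, Trpc2, Omp and B2m had none.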

How the data were processed

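H3K9me3 immunoprecipitation libraries of cultured CD8+ T cells, 1 WT and 1 KO, were read by 100-bp paired-end sequencing, per the labels' protocols. Bowtie2, SICER 1.1 and mm10 are listed in the submitters' processing notes. Not given in the sources used here were caller settings, treatment of duplicate and multiple alignments and use of the input. The deposited lists give, per island, its place on a 500 bp grid and a whole-number read count, which the authors did not scale to depth or input, per its values. The column has no header and was taken as reads per island. Positions were converted to count from 1. Depth of the whole libraries is unknown, so intervals (exact binomial, 95%) cover counting only.

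Genes came from RefSeq GRCm38.p6, without 348 genes on scaffolds, and cover was computed with Python 3.11.15 and pandas 2.3.3. Promoter windows were aligned globally with Biopython 1.88 (match 1, mismatch -1, gap opening -2, extension -0.5). Cover functions were tested on simulated data. Named genes were Vmn2r1 to Vmn2r7, Vmn2r26, Vmn2r88, Vmn2r116, the longest covered members per cluster and list, and up to 6 members covered in 1 list alone. Vmn2r28, Vmn2r62, Vmn2r86 and Vmn2r126, the promoter pair of Vmn2r30 and Vmn2r32, and genes of the signalling list were named after their values were seen. Members and lists were chosen with earlier results of these data known. Alternatives were other flanks, cover minimums, island filters, merging and cluster distances.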

Additional observations from a re-analysis of the deposited data

How the results depend on the processing

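No paired analysis was possible because there is 1 library per genotype, and no replicate could be left out. Results for the family as a whole and for the other signalling genes were recomputed. Of these values, 83 stayed within 1.5 times of the reported one or within its interval, and 24 moved further. Some of the 83 could not change. These include WT counts with the KO list reduced, and WT counts without the array of 24 genes, which held no WT island. The limit is also wide, since the fall from 64 to 44 KO members with the reduced list is among the 83. With at least 50% of the region covered, members were 16 in WT, 23 in KO, 6 in both and 17 in KO alone, a difference of 7, and other signalling genes 3 and 3. With islands under their list's median density left out, members were 26 in WT, 46 in KO and 18 in both. The difference between the lists stayed at 20 members, while islands lay over 9.48% of all genes in WT and 9.62% in KO. Signalling genes were 5 in WT. Span cover was then 4.36% in WT against 9.29% in KO, with 56.1% of WT and 24.8% of KO islands in the spans overlapped, against 72.8% and 33.6% with all islands. With the KO list reduced to the WT number, a setting that drops KO islands only, members were 16 in WT alone and 16 in KO alone, a difference of 0, and signalling genes 9 in KO. Span cover in KO was 10.8%, its ratio to WT 1.30, and 47.4% of WT and 44.4% of KO islands were overlapped. Counting an overlap only from 50% of an island gave 52.6% and 26.4%.

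Differences that changed sign were those of single clusters and families. KO minus WT cover became -13.2 kb above the median density and -12.7 kb with equal numbers at Vmn2r80 to Vmn2r83, 8.0 kb above the median density at Vmn2r88 and Vmn2r89, and -1.60 kb with equal numbers at Vmn2r90 to Vmn2r110. The Vmn2r share minus the Olfr share was 10.1 points in WT and 5.85 in KO, became -0.549 and -6.39 with 10 kb flanks, and -5.98 and -13.2 with at least 50% covered. The Vmn2r share minus the Vmn1r share in KO was 24.8 points and became -0.729 with at least 50% covered. The causes were not tested. Joining members up to 500 kb or 2 Mb apart left span cover and overlap within these limits.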

Other observations

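Vmn2r pseudogenes are not counted as members. Of 128 on autosomes, WT islands lay over 31 (24.2%) and KO islands over 43 (33.6%), of which 25 carried both, 6 a WT island only and 18 a KO island only. The shares of all autosomal protein-coding genes were 14.8% and 14.5%. The pseudogenes had a median length of 3.22 kb. All of those with an island lay outside the chromosome 7 array of 24 genes, where 17 pseudogenes had none. Outside it 31 of 111 (27.9%) were covered in WT and 43 (38.7%) in KO.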
